A study of Homo sapiens with 6 samples.

Results

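Respiratory complexes III, IV and V were examined through the nuclear genes that encode or assemble them. Members were all entries whose symbol begins with UQCR, ATP5, COX4 to COX8 or COX10 to COX19, together with CYC1. The rule found 55 of 21619 entries: 10 complex III subunit genes, 17 complex IV genes (subunits, their isoforms and the related COX7A2L), 8 assembly factors of complex IV, 18 complex V subunit genes, the complex V inhibitor ATP5IF1 and the readthrough entry ATP5MF-PTCD1. PolyA RNA came from HT1080, an established human fibrosarcoma cell line. It was sequenced in 3 libraries labelled wild type (WT) and 3 libraries with stable PGK1 overexpression (PGK1_OE). PGK1 is phosphoglycerate kinase, a glycolytic enzyme. The labels do not give the promoter that drives the introduced gene, the number of clones, or whether WT cells carry an empty vector. Nor do they say that the replicates came from separate cultures. The p-values therefore reflect spread among libraries, which may be technical. In such bulk RNA, fewer cells of a kind and less RNA per cell cannot be told apart.

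The respiratory chain passes electrons to oxygen along the inner mitochondrial membrane and stores the energy as a proton gradient across it. Complex III takes electrons from ubiquinol and hands them to cytochrome c, and complex IV passes them from cytochrome c to oxygen at centres made of heme and copper. Complex V, the ATP synthase, lets protons flow back through a rotating ring of c subunits and makes ATP. Each complex joins subunits encoded in the nucleus with subunits encoded in mitochondrial DNA. The mitochondrially encoded subunits were not analysed here.

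The libraries held between 34425162 and 40538274 counts, and all carried 1 batch label. PGK1 itself stood at 523 ± 4.03 normalised CPM (CPM, a gene's counts scaled to library size with TMM factors; SD, n = 3) in WT and 12660 ± 597 in PGK1_OE, the direction the labels give. Of 12 mesenchymal markers 11 had a mean above 1 CPM, and their summed level ranged from 4983 to 5791 CPM in WT and from 9031 to 9384 CPM in PGK1_OE. They did not all move with the sum: 8 were called higher, and CDH2 (log2 fold change -0.54), COL6A2 (-0.22) and THY1 (-3.06) lower. The epithelial markers EPCAM, KRT5, KRT14 and GRHL2, the blood cell markers PTPRC and CD14 and the muscle regulators MYOG and MYOD1 had 0 counts in every library. The summed level of 8 epithelial markers was 4.73 to 5.91 CPM in WT and 1.12 to 3.35 CPM in PGK1_OE. That of 9 muscle markers was 3.93 to 4.33 CPM in WT and 2.35 to 3.18 CPM in PGK1_OE. The 7 blood cell markers summed to 215 to 239 CPM in WT and 221 to 249 CPM in PGK1_OE, nearly all of it CD68 (227 ± 12.0 and 235 ± 14.2 CPM), while LYZ rose from 0.402 ± 0.0689 to 1.31 ± 0.318 CPM. The 5 endothelial markers summed to 4.39 to 5.89 CPM in WT and 10.3 to 13.4 CPM in PGK1_OE. Most of that difference was PECAM1, at 3.15 ± 0.727 and 10.4 ± 1.58 CPM, and the other 4 had lower means in PGK1_OE, with VWF and TEK not called and CDH5 and KDR not tested. The 5 neural or melanocyte markers summed to 5.74 to 6.99 and 11.1 to 13.2 CPM, mostly through SNAP25 (3.83 ± 0.604 and 9.23 ± 1.57 CPM), with SOX10 at 0. The part of these marker differences in the results below was not tested.

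Of the 55 members, 47 had enough counts to be tested, 27 were higher in PGK1_OE, 6 were lower and 14 did not pass an adjusted p of 0.05 in edgeR's quasi-likelihood test. Among all 14322 entries tested, 71.2% passed, 35.4% upward and 35.8% downward, so the members passed about as often as the background. Their calls leaned upward, with 57.4% higher and 12.8% lower. Their changes were small: the median absolute log2 fold change was 0.29, against 0.56 over all entries. Only COX18 and COX19 changed at least 2-fold, while 24.1% of all entries did. The 3 PGK1_OE libraries lay wholly above the 3 WT libraries for 29 members and wholly below for 6, where 37.9% and 38.5% of all entries did so (76.4% together). Because CPM are shares, a shift common to all mRNAs would not be seen.

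**Figure D1:**
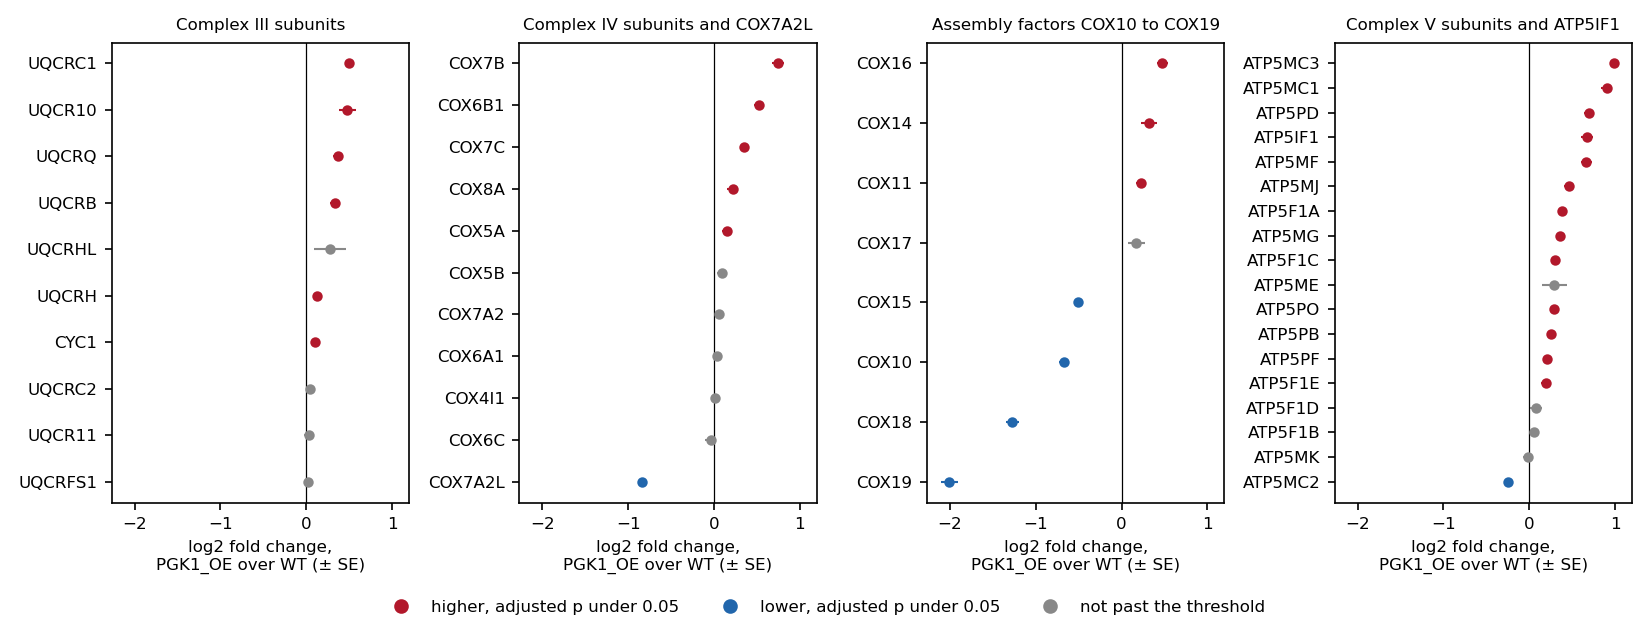
Log2 fold change of PGK1_OE over WT for the 47 tested members, 3 libraries in each group. Points are edgeR estimates and bars their standard errors, in red where the gene was higher, in blue where it was lower and in grey where it did not pass. Complex III and V points lie mostly to the right of 0, while COX19, COX18, COX10 and COX15 lie to the left.

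Complex III was called in 1 direction. Of 10 subunit genes, 6 rose (60%) and 0 fell, where 35.4% of all entries tested rose and 35.8% fell. The median log2 fold change was 0.20, against -0.02 over all entries tested. At an unadjusted p under 0.05, 0 members were lower in edgeR, and DESeq2 and limma-voom also called 0 lower. UQCRC1, a core protein on the matrix side, stood at 126, 122 and 129.6 CPM under WT and at 181, 180.5 and 174 CPM under PGK1_OE. The groups did not overlap. The difference was 0.50 on the log2 scale (SE 0.04), with an edgeR adjusted p = 3.09e-07. The other core protein, UQCRC2, had 132 ± 3.01 CPM under WT and 135 ± 3.91 under PGK1_OE (0.04, SE 0.04, edgeR adjusted p = 0.373).

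The small subunits of complex III gave the other clear rises. UQCR10 was at 17.9, 19.3 and 23.4 CPM in WT and 26.2, 29.4 and 28.9 CPM in PGK1_OE, a log2 fold change of 0.48 (SE 0.10). UQCRQ rose from 52.1 ± 3.36 to 67.5 ± 2.79 CPM (0.37, SE 0.06). UQCRB rose from 83.4 ± 6.42 to 105 ± 2.33 CPM (0.33, SE 0.06). For all 3 of these genes every PGK1_OE library was above every WT library. UQCR11, by contrast, differed by 0.03 (SE 0.05).

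The redox-active nuclear subunits moved little. CYC1, the cytochrome c1 that delivers electrons to cytochrome c, was at 125, 124 and 121 CPM in WT and 134, 132 and 132 CPM in PGK1_OE (0.10, SE 0.04, edgeR adjusted p = 0.0268). UQCRFS1, the Rieske iron-sulfur protein, was at 90.6 ± 0.835 and 92.2 ± 1.44 CPM (0.02, SE 0.04). The hinge protein UQCRH rose by 0.13 (SE 0.04, edgeR adjusted p = 0.0232). Its copy UQCRHL stood at 3.63 ± 0.659 and 4.40 ± 0.189 CPM (0.28, SE 0.19), and reads of the near-identical UQCRH could have been counted there. The calls of CYC1 and UQCRH were lost when certain single libraries were left out, which also left fewer libraries to test. The edgeR adjusted p of CYC1 was 0.0730 without WT replicate 3 and 0.0589 without PGK1_OE replicate 3. That of UQCRH was 0.0940 without WT replicate 1, 0.0543 without PGK1_OE replicate 2 and 0.0991 without PGK1_OE replicate 3. In the same order, the log2 fold changes were 0.0963 and 0.108 for CYC1 and 0.0904, 0.131 and 0.113 for UQCRH.

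Of the 17 complex IV genes 11 were tested, 5 rose (45.5%), 1 fell (9.09%) and 5 did not pass, with a median of 0.09. Over all entries tested, 35.4% rose and 35.8% fell, so complex IV genes passed less often (54.5% against 71.2%). COX7B, a small membrane subunit, was at 27.9, 32.8 and 33.2 CPM in WT and at 53.6, 51.9 and 52.3 CPM in PGK1_OE. This was a 1.68-fold difference (log2 fold change 0.75, SE 0.07, edgeR adjusted p = 1.41e-06). COX6B1, which lies on the side that docks cytochrome c, rose from 52.5 ± 3.15 to 75.7 ± 1.01 CPM (0.53, SE 0.05). COX7C rose by 0.35 (SE 0.04) and COX8A by 0.22 (SE 0.06). Of COX8A exon sequence, 34.5% is shared with the same-strand entry AP000721.1, so its value is uncertain. COX5A rose from 68.1 ± 4.84 to 75.8 ± 0.741 CPM (a log2 difference of 0.16, SE 0.06; by edgeR, adjusted p = 0.0253). Leaving out WT replicate 1 moved the edgeR adjusted p of COX5A to 0.0920. Leaving out PGK1_OE replicate 1, 2 or 3 moved it to 0.0555, 0.0601 or 0.0541.

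The subunits of complex IV that did not pass included its most abundant one. COX4I1, an early-joining subunit beside the mitochondrially encoded core, was at 238, 234 and 247 CPM in WT and at 248, 235 and 243 CPM in PGK1_OE, with overlapping groups (0.01, SE 0.04). COX5B, COX6A1, COX6C and COX7A2 differed by 0.09, 0.04, -0.04 and 0.06, with standard errors of 0.05 to 0.07. Under library totals in place of TMM factors, on the log2(FPKM + 1) scale and with the length trend removed, the small differences of COX4I1 and COX6A1 were negative. The sign of such values is therefore not a result.

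COX7A2L was the complex IV gene that fell. Its protein, also called SCAF1, is related to subunit 7A and links complexes III and IV in a supercomplex rather than serving as an ordinary subunit. It was at 139.6, 145 and 143 CPM in WT and 82.1, 76.7 and 80.2 CPM in PGK1_OE, a 1.79-fold difference (-0.84 in log2 units, SE 0.04; edgeR adjusted p = 8.07e-09). Its counts per COX7A2 count were 1.98, 2.01 and 1.95 under WT and 1.06, 1.05 and 1.07 under PGK1_OE. The 2 groups were far apart beside the spread between libraries. Per length, in the deposited FPKM values, COX7A2L stood at 60.5 ± 1.07 in WT and COX7A2 at 144 ± 2.55.

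The tissue-restricted isoforms of complex IV were nearly silent in both groups. COX4I2, COX6A2 (the heart and muscle isoform), COX7B2 and COX8C had 0 counts in all 6 libraries. A count of 0 allows up to 3 counts, or 0.0750 to 0.0851 CPM depending on the library, which covers counting error only. COX6B2, the testis isoform, had 26 counts summed over WT and 14 summed over PGK1_OE. COX7A1, the muscle isoform of subunit 7A, had 2 and 6 counts. The widespread isoforms COX4I1, COX6A1, COX6B1, COX7A2, COX7B and COX8A thus carried nearly all counts of their subunits. The last 2 members that were not tested were ATP5MGL, with 2 counts in PGK1_OE replicate 2, and ATP5MF-PTCD1, with 2 counts in WT replicate 3.

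The assembly factors COX10 to COX19 held the 2 largest changes of all members. Of 8 tested, 4 fell (50%) and 3 rose (37.5%), against 35.8% and 35.4% of all entries tested, and the median was -0.17. COX19, an intermembrane-space protein needed for copper delivery, was at 45.8, 38.5 and 42.1 CPM in WT and at 11.1, 8.98 and 11.3 CPM in PGK1_OE. It was 4.03-fold lower (-2.01 in log2 units, SE 0.10; edgeR adjusted p = 1.13e-08). Its annotated exons (chromosome 7, 898778 to 975599 on GRCh38) overlap those of ADAP1 on the same strand over 21.4% of their length. ADAP1 had 348, 385 and 428 counts in WT and 374, 404 and 336 in PGK1_OE, with overlapping groups. COX18, the translocase that inserts the tail of the COX2 subunit into the membrane, was at 29.6, 30.5 and 28.3 CPM in WT and 12.3, 12.4 and 11.9 CPM in PGK1_OE. It was 2.42-fold lower (-1.27, SE 0.07, edgeR adjusted p = 2.68e-08), and its exons overlap no other annotated gene.

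Both enzymes that make heme A, the heme found only in complex IV and its relatives, fell. COX10, the heme O synthase, went from 43.1 ± 1.31 to 27.0 ± 0.696 CPM, a log2 difference of -0.67 (SE 0.06; edgeR adjusted p = 7.09e-07). COX15, the heme A synthase of the next step, went from 79.0 ± 1.68 to 55.5 ± 2.03 CPM, or by -0.51 (SE 0.05; edgeR adjusted p = 1.63e-06). In neither gene did the groups overlap. Of COX15 exon sequence, 25.6% is shared with the same-strand entry AL133353.2, so its value is uncertain.

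The rises among these factors were smaller. COX16, which works on the copper site of COX2, rose from 32.3 ± 0.766 to 44.9 ± 2.97 CPM (0.48, SE 0.06). COX14, an early partner of the COX1 subunit, rose from 18.1 ± 0.804 to 22.6 ± 2.36 CPM (0.32, SE 0.09). COX11, which helps to place copper in the COX1 subunit, rose by 0.23 (SE 0.05, edgeR adjusted p = 0.00238), but did not pass on log2(FPKM + 1) (limma adjusted p = 0.262). COX17, the copper chaperone that hands the metal on to other factors, was at 14.4, 17.5 and 14.7 CPM in WT and 18.3, 16.4 and 17.9 CPM in PGK1_OE (0.17, SE 0.10, edgeR adjusted p = 0.144). It passed without WT replicate 2 (0.27, edgeR adjusted p = 0.0242). Steps of the copper route therefore differed in opposite directions or did not pass, with COX19 lower, COX11 and COX16 higher and COX17 not called. COX16 shares exons with the readthrough SYNJ2BP-COX16, which had 56 to 135 counts in WT and 66 to 247 in PGK1_OE, and COX11 overlaps STXBP4 and TOM1L1 on the opposite strand.

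**Figure D2:**
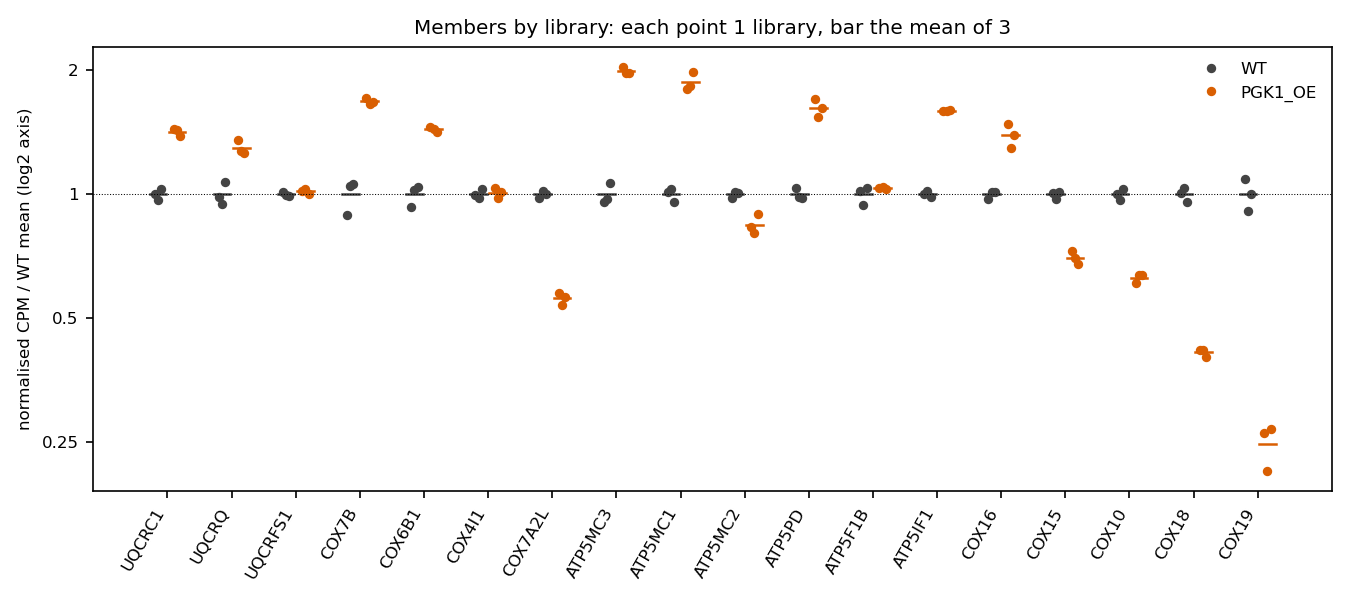
Normalised CPM of 18 members in each library, divided by the WT mean of the gene, on a log2 axis. Each point is 1 library (WT in dark grey, PGK1_OE in orange) and each bar the mean of 3. COX19, COX18 and COX7A2L separate downward, ATP5MC3, ATP5MC1 and COX7B upward, and COX4I1, UQCRFS1 and ATP5F1B overlap.

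Complex V showed the most rises. Among 17 tested subunit genes there were 12 rises (70.6%), 1 fall (5.88%) and 4 that missed the threshold, with a median of 0.29. Over all entries tested, 35.4% rose and 35.8% fell. The c ring, the rotor driven by protons, gave both the largest rises and the fall. Its subunit is encoded by ATP5MC1, ATP5MC2 and ATP5MC3, which make the same mature protein and differ in the import sequence that is cut off. ATP5MC3 was at 81.7, 83.2 and 90.7 CPM in WT and 173, 168 and 168 CPM in PGK1_OE (log2 fold change 0.99, SE 0.05, edgeR adjusted p = 4.66e-09). ATP5MC1 was at 26.2, 26.6 and 24.7 CPM in WT and 46.6, 47.2 and 51.1 CPM in PGK1_OE (0.90, SE 0.06, edgeR adjusted p = 1.07e-07). ATP5MC2 was at 109, 113 and 112 CPM in WT and 92.8, 89.7 and 99.5 CPM in PGK1_OE (-0.25, SE 0.05, edgeR adjusted p = 5.82e-04). In each of the 3 genes the groups did not overlap.

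The makeup of c-ring mRNA changed with these shifts. ATP5MC2 held 50.1% ± 0.755 of the counts of the 3 genes in WT and 30.1% ± 1.02 in PGK1_OE. ATP5MC3 went from 38.3% ± 1.40 to 54.4% ± 1.52 of counts, and ATP5MC1 from 11.6% ± 0.665 to 15.5% ± 0.575. Per length, in FPKM, ATP5MC2 was the most abundant of the 3 in every library, at 65.8% ± 0.976 in WT and 47.0% ± 2.21 in PGK1_OE. The summed level of the 3 genes was 222 ± 5.06 CPM in WT and 312 ± 6.55 CPM in PGK1_OE. In FPKM the sum was 1.15-fold higher, from 248 ± 6.41 to 285 ± 10.6, against 1.40-fold in CPM. The size of the rise in c-ring mRNA therefore depends on the unit, and the direction does not.

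**Figure D3:**
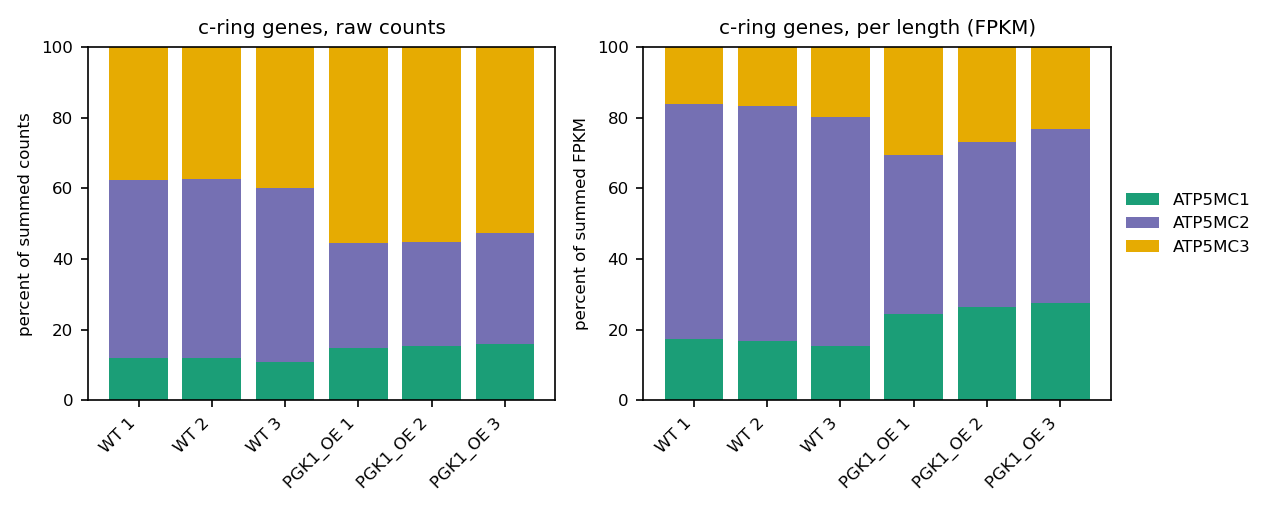
Share of ATP5MC1, ATP5MC2 and ATP5MC3 in their summed mRNA in each of the 6 libraries, from raw counts (left) and from FPKM (right). Stacked bars add to 100 percent, and the ATP5MC2 share is smaller in all 3 PGK1_OE libraries in both panels.

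The catalytic head of complex V changed less. ATP5F1B, the catalytic beta subunit and the most abundant member, was at 961, 887 and 975 CPM in WT and 974, 979 and 972 CPM in PGK1_OE (0.05, SE 0.04, edgeR adjusted p = 0.267). ATP5F1A, the alpha subunit, rose from 407 ± 21.7 to 530.1 ± 11.6 CPM, or by 0.38 (SE 0.04; edgeR adjusted p = 7.44e-06). Its deposited FPKM values, at 192, 182 and 71.1 in WT and 88.1, 244 and 247 in PGK1_OE, do not follow its counts, and on log2(FPKM + 1) limma gave an adjusted p of 0.516. WT replicate 3 and PGK1_OE replicate 1 have low FPKM values without low counts, and the cause was not tested. Of the rotor stem, ATP5F1C (gamma) rose by 0.30 (SE 0.04) and ATP5F1E (epsilon) by 0.20 (SE 0.06). ATP5F1D (delta) was at 44.8 ± 0.799 and 47.4 ± 4.14 CPM and did not pass (0.08, SE 0.07), but did without PGK1_OE replicate 1 (0.15, edgeR adjusted p = 0.0389).

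All 4 genes of the peripheral stalk, which holds the head still against the rotor, rose. ATP5PD was at 49.7, 47.1 and 46.9 CPM in WT and 81.7, 73.8 and 77.4 CPM in PGK1_OE (0.70, SE 0.05, edgeR adjusted p = 2.86e-07). ATP5PO rose by 0.29 (SE 0.05), ATP5PB by 0.25 (SE 0.04) and ATP5PF by 0.20 (SE 0.04). ATP5PD, ATP5PB and ATP5PF overlap KCTD2, WDR77 and GABPA on the opposite strand over 10.4% to 23.1% of their exons, and ATP5PO shares 25.4% with AP000311.1 and LINC00649, so reads of those genes may be included.

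The small membrane subunits that join synthases into dimers were mixed. ATP5MF rose from 34.6 ± 1.58 to 54.9 ± 3.07 CPM (0.67, SE 0.06), ATP5MJ by 0.46 (SE 0.05) and ATP5MG by 0.35 (SE 0.04). ATP5MK was at 67.3 ± 4.63 and 66.7 ± 1.44 CPM (-0.01, SE 0.06). ATP5ME was at 10.9 ± 1.26 and 13.4 ± 2.55 CPM (0.29, SE 0.14, edgeR adjusted p = 0.0930), and 61.6% of its exons lie opposite MYL5. ATP5IF1, which blocks ATP hydrolysis by a synthase running backward, rose beside the subunits. It was at 16.5, 16.7 and 16.2 CPM in WT and 26.2, 26.2 and 26.4 CPM in PGK1_OE (0.67, SE 0.07, edgeR adjusted p = 3.60e-06). Its FPKM per ATP5F1B FPKM was 0.0471 ± 0.00452 in WT and 0.0613 ± 4.57e-04 in PGK1_OE.

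Levels were compared between genes per length, in FPKM. ATP5F1B led the members in WT at 508 ± 21.9 FPKM and ranked 91 among 21619 entries, followed by COX4I1 at 298 ± 8.07 and UQCRH at 259 ± 13.9. The lowest subunits by FPKM, above the isoforms and copies, were ATP5F1E at 17.2 ± 0.894 and COX7B at 18.7 ± 1.10. The lengths implied by counts and FPKM were 3514 and 1810 bases for these 2 genes. By CPM they were not lowest, at 61.2 and 31.3 in WT against 10.9 for ATP5ME. Several assembly factors were lower, with COX18 at 5.01 ± 0.254, COX19 at 9.18 ± 2.26 and COX10 at 14.2 ± 0.382 FPKM, while COX14 was at 32.7 ± 1.29 and COX17 at 33.7 ± 3.82. Summed over subunits, complex III FPKM was 735 ± 24.8 in WT and 835 ± 4.11 in PGK1_OE, and complex IV FPKM, COX7A2L included, was 1313 ± 50.5 and 1389.9 ± 33.7. Complex V without ATP5F1A was at 1679 ± 40.1 and 1924 ± 22.5. The complex IV sums overlapped between groups, and those of complexes III and V did not. Among tested members, 7 had FPKM values that departed from their counts by over 1.2 times between libraries. These were UQCRHL, COX7B, COX19, ATP5F1A, ATP5MC3, ATP5MG and ATP5IF1, so FPKM levels, shares and ratios that use them are less certain.

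Gene length moved with membership. The length implied by counts and FPKM had a median of 865 bases over the tested members, 16 of which lay under 700 bases. Of 224 entries under 700 bases, 33.5% were higher and 19.6% lower, with a median log2 fold change of 0.08, whereas entries over 4000 bases had 34.8% higher, 38.4% lower and a median of -0.06. When a length trend was removed in each library, 4 complex III genes, 3 complex IV genes and 12 complex V genes were called higher. COX8A (0.11, edgeR adjusted p = 0.108), COX5A (0.12, 0.0662), UQCRH (0.03, 0.519) and CYC1 (0.08, 0.0706) were then not called, and ATP5MK was called lower (-0.13, 0.0450).

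Assembly factors outside the symbol rule were read from lists of known genes. Of 9 complex III assembly factors 7 fell (77.8%) and 0 rose (also 0 at an unadjusted p under 0.05 in edgeR), and the median was -0.45. Over all entries tested, 35.8% fell and 35.4% rose. TTC19, which binds mature complex III, went from 254 ± 18.0 to 99.3 ± 1.58 CPM (-1.35, SE 0.05). UQCC1, needed for cytochrome b, went from 158 ± 0.927 to 82.0 ± 3.57 CPM (-0.95, SE 0.04). BCS1L, which moves the Rieske protein into place, fell by 0.89 (SE 0.07), and its chaperone LYRM7 by 0.44 (SE 0.06). The Rieske gene itself, UQCRFS1, did not pass. TTC19 and BCS1L overlap ZSWIM7 and ZNF142 on the opposite strand.

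Of 26 complex IV assembly and associated genes outside the rule, 8 rose (30.8%) and 12 fell (46.2%), with a median of -0.17. Over all entries tested, 35.4% rose and 35.8% fell. SCO1, a copper chaperone for the COX2 subunit, went from 163 ± 9.28 to 87.3 ± 1.33 CPM (-0.90, SE 0.05). CMC1 (-0.82, SE 0.05), SMIM20 (-1.20, SE 0.08) and COA5 (-0.90, SE 0.08) fell too. These 4 had the smallest adjusted p of the list, and the genes that follow were named after their values were seen. Among the 8 rises were FDXR (0.70, SE 0.08), COA3 (0.62, SE 0.08) and HIGD2A (0.39, SE 0.05). Factors that act early with newly made COX1 thus went both ways, CMC1 and SMIM20 lower and COA3 higher. NDUFA4, a subunit of complex IV, rose from 41.9 ± 3.92 to 55.7 ± 0.899 CPM (0.41, SE 0.07). Its paralog NDUFA4L2, far less abundant in counts, went from 4.59 ± 0.409 to 0.957 ± 0.219 CPM (-2.26, SE 0.24). Of 6 complex V assembly factors 1 rose (16.7%) and 3 fell (50%), with a median of -0.19. TMEM242 (-0.95, SE 0.06), DMAC2L (-0.78, SE 0.11) and FMC1 (-0.59, SE 0.14) fell and TMEM70 rose (0.45, SE 0.06). On the log2(FPKM + 1) scale TMEM70 did not pass (0.05, limma adjusted p = 0.417), and 0 genes of this list were called higher. Without PGK1_OE replicate 1 the list had 2 rises.

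**Figure D4:**
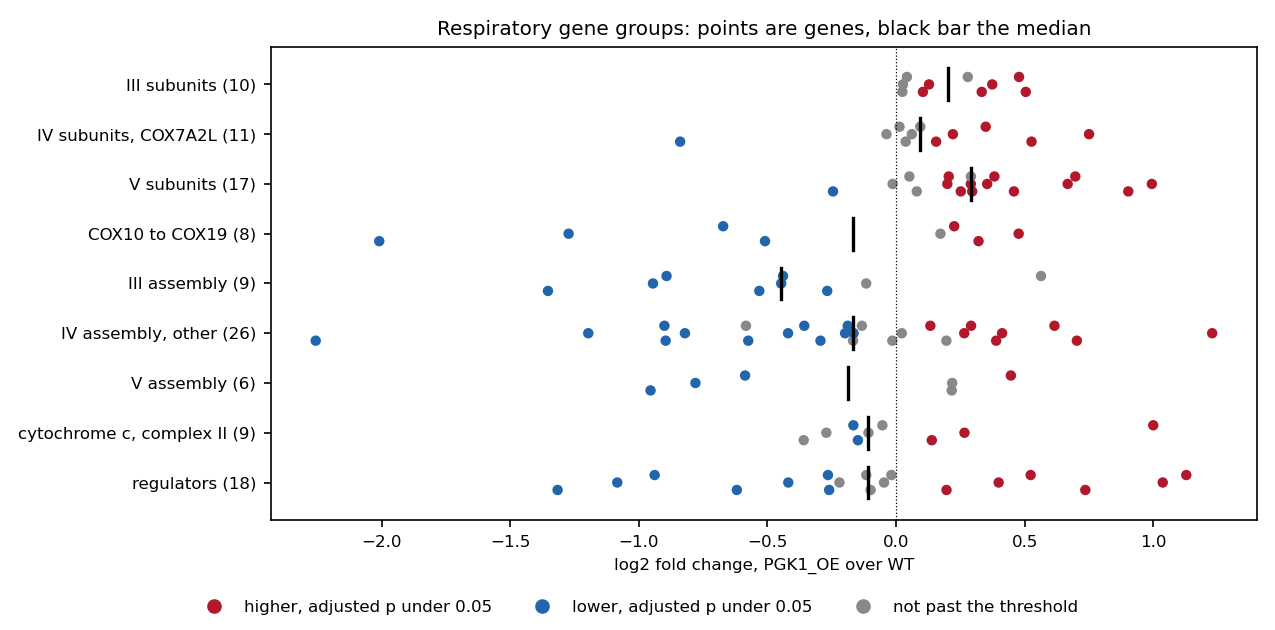
Log2 fold change of PGK1_OE over WT for the tested genes of each group, with the number of genes in brackets. Points are genes, coloured by call, and black bars are medians, which are above 0 for the 3 subunit groups and below 0 for the other 6 groups. The cytochrome c and complex II group includes the assembly factors SDHAF1 to SDHAF4, all below 0. In that group SDHA, SDHC and SDHD lie above 0, and SDHB and CYCS below.

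Cytochrome c and complex II, next to these complexes, were listed together with the complex II assembly factors SDHAF1 to SDHAF4. The list gave 3 rises (33.3%) and 2 falls (22.2%) among 9 genes, with a median of -0.11. SDHAF1 to SDHAF4 did not pass (-0.27, -0.05, -0.11 and -0.36), and the median was the value of SDHAF3. Every call was therefore in CYCS or a complex II subunit. Of all entries tested, 35.4% rose and 35.8% fell. SDHA, the flavoprotein of complex II, rose from 79.4 ± 9.79 to 159 ± 3.85 CPM (1.00, SE 0.08). SDHC rose by 0.27 (SE 0.05) and SDHD by 0.14 (SE 0.04), and SDHB fell by 0.15 (SE 0.05). CYCS, cytochrome c itself, fell from 406 ± 23.0 to 362 ± 26.2 CPM (-0.17, SE 0.06, edgeR adjusted p = 0.0274). Both falls lost their call when certain single libraries were left out, which also left fewer libraries to test. For SDHB the edgeR adjusted p was 0.0654 without WT replicate 3. For CYCS it was 0.0666 without WT replicate 1, 0.126 without WT replicate 2 and 0.111 without PGK1_OE replicate 1. The log2 fold changes of CYCS in these fits were -0.171, -0.112 and -0.1. A list of 18 genes, regulators of nuclear respiratory genes and factors that act inside mitochondria, had 6 rises (33.3%) and 7 falls (38.9%). These shares were close to those over all entries, and the median was -0.11. Among the factors inside mitochondria, TFAM, TFB1M, TFB2M and LONP1 fell, TEFM rose and POLRMT did not pass. TFB2M, a factor of mitochondrial transcription, went from 105 ± 0.981 to 42.1 ± 0.854 CPM (-1.32, SE 0.04), and TFB1M fell by 1.08 (SE 0.07). The matrix protease LONP1 fell by 0.94 (SE 0.04) and the transcription factor YY1 rose by 0.74 (SE 0.04).

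Promoter sequence was read for 42 of the 55 members from RefSeq on GRCh38.p14, from 250 bases before to 50 bases after the gene's start. Many nuclear respiratory genes are known targets of NRF1 and of ETS-family factors such as GABP, so letters of those sites were searched on both strands. The NRF1 letters, GCGCA and GCGC with any base between them, stood in 26.2% of member promoters and in 5.78% of all 35116 promoters of the same length. The ETS letters CCGGAAG stood in 38.1% and 10.3%, and the YY1 letters AAGATGGCG in 7.14% and 1.75%. The 35116 promoters were not limited to the 14322 entries tested, and whether these differences are particular to respiratory genes was not tested. At least 1 of the 3 was present in 12 of 22 promoters of members called higher, 3 of 6 called lower and 8 of 10 not called. A match is a description and not a bound site. NRF1 mRNA, named after its values were seen, rose (1.04, SE 0.12) and GABPA mRNA did not pass (-0.02, SE 0.05).

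The bases from 150 to 31 before the RefSeq start show how the same letters stand before genes that moved in different directions. They are printed 5′ to 3′ on the gene's strand, in lower case, with matches in capitals. ATP5PD (higher, chr17:75047000-75047119, minus strand) and COX10 (lower, chr17:14069354-14069473, plus strand) each hold 1 ETS match. UQCR11 (not called, chr19:1605493-1605612, minus strand) holds 2 ETS matches. COX18 (lower, chr4:73069747-73069866, minus strand) holds 1 NRF1 match. ATP5MC1 (higher, chr17:48892637-48892756, plus strand) and COX19 (lower, chr7:975580-975699, minus strand), with the largest fall of the members, hold none of the 3 in this window. GENCODE 29 starts COX18 and COX19 further upstream than RefSeq, so the last 9 bases printed for COX18 and the last 20 for COX19 are exon there.
ATP5PD: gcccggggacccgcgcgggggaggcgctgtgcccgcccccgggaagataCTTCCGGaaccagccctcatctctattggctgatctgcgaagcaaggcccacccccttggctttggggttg
ATP5MC1: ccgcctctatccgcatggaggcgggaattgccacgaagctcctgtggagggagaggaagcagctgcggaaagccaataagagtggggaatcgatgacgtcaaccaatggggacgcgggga
UQCR11: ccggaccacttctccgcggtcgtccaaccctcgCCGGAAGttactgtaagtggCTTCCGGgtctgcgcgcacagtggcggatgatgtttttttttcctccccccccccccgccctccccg
COX10: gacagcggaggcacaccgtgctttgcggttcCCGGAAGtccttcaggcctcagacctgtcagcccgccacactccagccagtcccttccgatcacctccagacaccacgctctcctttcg
COX18: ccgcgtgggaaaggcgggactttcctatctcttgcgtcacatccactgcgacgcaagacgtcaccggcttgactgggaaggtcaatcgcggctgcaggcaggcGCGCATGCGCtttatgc
COX19: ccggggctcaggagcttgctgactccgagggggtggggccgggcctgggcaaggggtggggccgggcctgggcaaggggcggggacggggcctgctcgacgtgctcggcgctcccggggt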

How the data were processed

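RNA of 6 HT1080 libraries was measured, 3 in each of 2 groups, with groups and replicate numbers from the titles and table columns matched through the descriptions. The tools listed in the submitters' processing notes are fastp and HISAT, and the build is hg38. For the read counter, strand setting and annotation release the entry is "not given in the sources used here". Values used were raw counts deposited by the authors and, as a separate measure, FPKM deposited by them, which divide by gene length and library size. Counts were fitted across all entries in R 4.3.3 with edgeR 4.0.16 (filterByExpr by group, TMM, robust quasi-likelihood, group as the only term, Benjamini-Hochberg over 14322 entries, threshold 0.05). Standard errors were derived from each gene's fold change and its F statistic. No 2 libraries of a group were duplicates: chi-square divided by its degrees of freedom was 7.39 to 13.9. Steps were tested on simulated counts.

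Named in full were up to 4 rises and 4 falls per class, isoform groups, ATP5IF1, and of each other list up to 4 genes by adjusted p; the remaining members are given more briefly. NDUFA4, NDUFA4L2, COA3, FDXR, HIGD2A, CYCS, NRF1, GABPA and single cell type markers were added after their values were seen. So were SDHAF1 to SDHAF4, TFAM, TEFM and POLRMT. The members and lists were chosen with earlier results of these data known. Exon overlaps come from GENCODE 29 on GRCh38, the build of hg38. Of the members, 29 share exon bases with another gene, 26 of them among those tested, and 27 have pseudogenes named after them, which may share reads. Alternatives were other scalings, filters and thresholds, DESeq2 1.42.0, limma-voom and limma 3.58.1 on log2(FPKM + 1) or log2(FPKM + 0.1), a replicate block, a length trend (lengths from counts and FPKM) and leaving out each library.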

Additional observations from a re-analysis of the deposited data

How the results depend on the processing

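Of 33 members called, 26 kept the call and its direction under all 19 alternatives, 7 (CYC1, UQCRH, COX5A, COX8A, COX11, ATP5F1A and ATP5MG) lost it under at least 1, and 0 changed sign. The cause was not tested. The higher count of complex IV genes, 5 in the reported fit, was 3 on log2(FPKM + 1) without a filter and 3 with the length trend removed, where the lower count of complex V was 2. In the list of complex V assembly factors, 0 were higher in each of the 3 FPKM fits, and 1 to 2 when 1 library was left out. In the list of cytochrome c, complex II and its assembly factors, 4 were lower on log2(FPKM + 1) and log2(FPKM + 0.1). There were 0 at an adjusted p under 0.01, 1 with the length trend removed, and 1 to 2 when 1 library was left out. The counts for COX10 to COX19 stayed at 4 lower under every alternative.

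Sign changes were seen only in genes that did not pass in the reported fit. With library totals, UQCR11 was -0.0185, UQCRC2 -0.00319, UQCRFS1 -0.0212, COX4I1 -0.0320 and COX6A1 -0.00832. On log2(FPKM + 1), with or without the filter, UQCR11 was -0.0167, UQCRFS1 -0.0220, COX4I1 -0.0326 and COX6A1 -0.00857, and on log2(FPKM + 0.1) the values were -0.0171, -0.0228, -0.0327 and -0.0086. With the length trend removed, COX4I1 was -0.0527, COX6A1 -0.0629, COX7A2 -0.0537 and GABPA 0.00903. Leaving out 1 library gave -0.00359 to 0.0761 for COX6A1, -0.0882 to 0.00682 for COX6C, -0.0632 to 0.0303 for ATP5MK and -0.0477 to 0.0201 for GABPA.

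The replicate numbers did not pair the libraries: deviations of same-numbered libraries correlated at -0.0134, -0.0129 and 0.0952, and WT replicates 1 and 2 correlated best with another number. With the replicate block 9943 entries were called against 10195, and 6, 5 and 12 genes of complexes III, IV and V were higher, as without it. The tested members had at least 150.5 counts per library on average, so depth limits mainly the rare isoforms.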

Other observations

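COX7B lies upstream of PGK1 on chromosome X, and the start of ATP7A lies between them. In GENCODE 29 on GRCh38 COX7B spans 77899438 to 77907373 on the plus strand and ends 3365 bases before the outermost annotated start of PGK1. That start, at 77910739, lies inside the span of ATP7A (77910656 to 78050395), so ATP7A is the nearer gene. The annotated span of PGK1 runs to 78129296, and starts further inside it were not examined. The distance from COX7B to the PGK1 start in use is therefore not known. The next gene upstream, MAGT1, rose by 0.77 (SE 0.06, edgeR adjusted p = 2.45e-07), close to the 0.75 (SE 0.07) of COX7B. ATRX further upstream fell by 0.12 (SE 0.04) and TAF9B on the other side rose by 0.22 (SE 0.07). PGAM4, inside the PGK1 span on the other strand, rose by 2.38 (SE 0.32). ATP7A, whose exons overlap PGK1, differed by 0.16 (SE 0.25) and did not pass. These genes were looked at after their values were seen.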
